A study of Homo sapiens with 22 samples.

Results

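Peak regions were examined at 6 genes of the Polycomb system, EZH2, EZH1, EED, SUZ12, JARID2 and KDM6A, in ChIP-seq peak lists of 22Rv1, a prostate carcinoma line of human origin. A region belonged to a gene when it overlapped the gene's hg19 span widened by 5 kb on each side. By this rule 244 of the 291055 regions in 8 lists were kept. The lists cover 3 targets: the histone mark H3K27me3, the cell cycle factor E2F3, and Pol2S5p, which is RNA polymerase II carrying a phosphate on serine 5 of its tail, as it does when it starts transcription. Each target was mapped in cells labelled Ctrl and in cells labelled H1-10 OE, read here as overexpression of H1-10, a linker histone variant. Pol2S5p was also mapped in cells labelled siCtrl and siE2F3, read here as a control siRNA and one against E2F3. The peak names of the siCtrl and siE2F3 lists carry H1FXOE, H1FX being an older symbol of H1-10, while the sample labels give the siRNA alone. With 1 library in each group, differences could not be checked against replicates and were not tested. The labels do not say whether the overexpressing cells were 1 clone or a pool.

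The Polycomb repressive complex PRC2 places methyl groups on lysine 27 of histone H3 and thereby makes H3K27me3, the mark of Polycomb-silenced chromatin. EZH2 and EZH1 are its alternative catalytic subunits, EED and SUZ12 are core subunits needed for activity, and JARID2 is an accessory subunit that helps to recruit the complex. KDM6A (UTX) removes the mark. EZH2 and EED are known in proliferating cells as targets of the E2F factors, and EZH2 is highly expressed in advanced prostate cancer.

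The sequences around the annotated starts of 4 members are shown because E2F3 regions of Ctrl lay over the 5' ends of these genes and because the 4 differed in whether the H1-10 OE list held one within 1 kb. They come from RefSeq on GRCh38.p14, run from 250 bases before to 50 bases after the start on the strand of the gene, and carry in capitals each match to an E2F consensus word on either strand. The peaks are on hg19, so windows and peaks were matched by gene and not by coordinate.
EZH2 (chr7:148884242-148884541, minus strand): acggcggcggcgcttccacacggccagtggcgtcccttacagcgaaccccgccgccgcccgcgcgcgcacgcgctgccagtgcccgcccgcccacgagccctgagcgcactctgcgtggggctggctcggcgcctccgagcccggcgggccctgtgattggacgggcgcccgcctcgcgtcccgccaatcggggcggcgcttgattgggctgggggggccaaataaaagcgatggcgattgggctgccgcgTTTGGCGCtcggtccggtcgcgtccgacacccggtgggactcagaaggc
EZH1 (chr17:42744991-42745290, minus strand): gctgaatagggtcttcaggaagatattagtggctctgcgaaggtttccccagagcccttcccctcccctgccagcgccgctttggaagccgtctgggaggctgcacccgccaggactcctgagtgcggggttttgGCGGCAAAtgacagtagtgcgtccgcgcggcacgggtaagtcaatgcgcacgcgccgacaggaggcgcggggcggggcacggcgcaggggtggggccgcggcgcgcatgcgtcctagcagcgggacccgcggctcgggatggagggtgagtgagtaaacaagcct
SUZ12 (chr17:31936757-31937056, plus strand): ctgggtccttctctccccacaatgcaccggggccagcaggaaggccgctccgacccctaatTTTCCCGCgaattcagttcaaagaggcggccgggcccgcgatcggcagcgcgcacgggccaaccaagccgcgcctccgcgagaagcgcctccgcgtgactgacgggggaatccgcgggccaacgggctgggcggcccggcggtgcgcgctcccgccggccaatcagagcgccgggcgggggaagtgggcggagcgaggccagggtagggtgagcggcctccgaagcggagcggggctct
EED (chr11:86244503-86244802, plus strand): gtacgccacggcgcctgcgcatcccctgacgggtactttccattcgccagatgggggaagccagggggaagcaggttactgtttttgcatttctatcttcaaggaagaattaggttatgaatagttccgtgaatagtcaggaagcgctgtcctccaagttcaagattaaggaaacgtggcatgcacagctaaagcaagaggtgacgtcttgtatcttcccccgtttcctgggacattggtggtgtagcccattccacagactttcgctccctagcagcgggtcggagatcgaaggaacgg

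The words searched were TTTCCCGC, TTTGGCGC, TTTCGCGC and TTTGCCGC. EZH2 held TTTGGCGC at bases 252 to 259 of the window, counted from its 5' end, just after the start. EZH1 held TTTGCCGC on the opposite strand at bases 136 to 143, and SUZ12 held TTTCCCGC at bases 62 to 69. The windows of EED and KDM6A, both windows of JARID2 and the second window of EZH2 held none of these words. Of all 35116 RefSeq windows of this length, 3.31% held at least 1 of the 4 words. The shorter E2F word GCGGGAA, found in 6.55% of all windows, matched SUZ12 alone among the members, at bases 63 to 69 inside the longer match. The GC box GGGCGG, the word of SP factors, was present in every member window other than that of EED, against 45.0% of all windows. CCAAT, the word of NF-Y, had 4 matches in the first EZH2 window and was held by 34.6% of all windows. It was also present in the windows of EED, SUZ12 and KDM6A and in the first of JARID2. The EZH1 window and the second windows of EZH2 and JARID2 held none. The share of G and C was 52.3% in the EED window, below the median of 58.7% over all windows, and between 64 and 77% in the other member windows. Base composition was not matched in these shares.

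The lists differed in length, from 2540 and 18395 regions for H3K27me3 (Ctrl and H1-10 OE) through 22988 and 4296 for E2F3 and 35493 and 40626 for Pol2S5p to 83650 in siCtrl and 83067 in siE2F3. Read depth is unknown here. Fold enrichments and -log10 q values are the authors' and describe a peak within its own list. Markers of the 22Rv1 lineage set the libraries apart. In a window at KLK3 and KLK2, which encode secreted proteases of the prostate, Pol2S5p regions covered 10.98 kb in Ctrl, and the other Pol2S5p lists had no region. The same held at TMPRSS2, with 0.671 kb in Ctrl. At HOXB13, a lineage factor, the covered length was 7.21, 2.44, 3.14 and 2.78 kb in Ctrl, H1-10 OE, siCtrl and siE2F3. At FOXA1, another, these lengths were 13.7, 3.08, 7.59 and 5.87 kb. The libraries labelled H1-10 OE, siCtrl and siE2F3 thus had no called Pol2S5p at KLK3, KLK2 and TMPRSS2, where the library labelled Ctrl had regions. Other differences between the cells behind these libraries and the label H1-10 OE cannot be told apart in any contrast with Ctrl, and the lists do not show whether all came from the same cells.

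**Figure D1:**
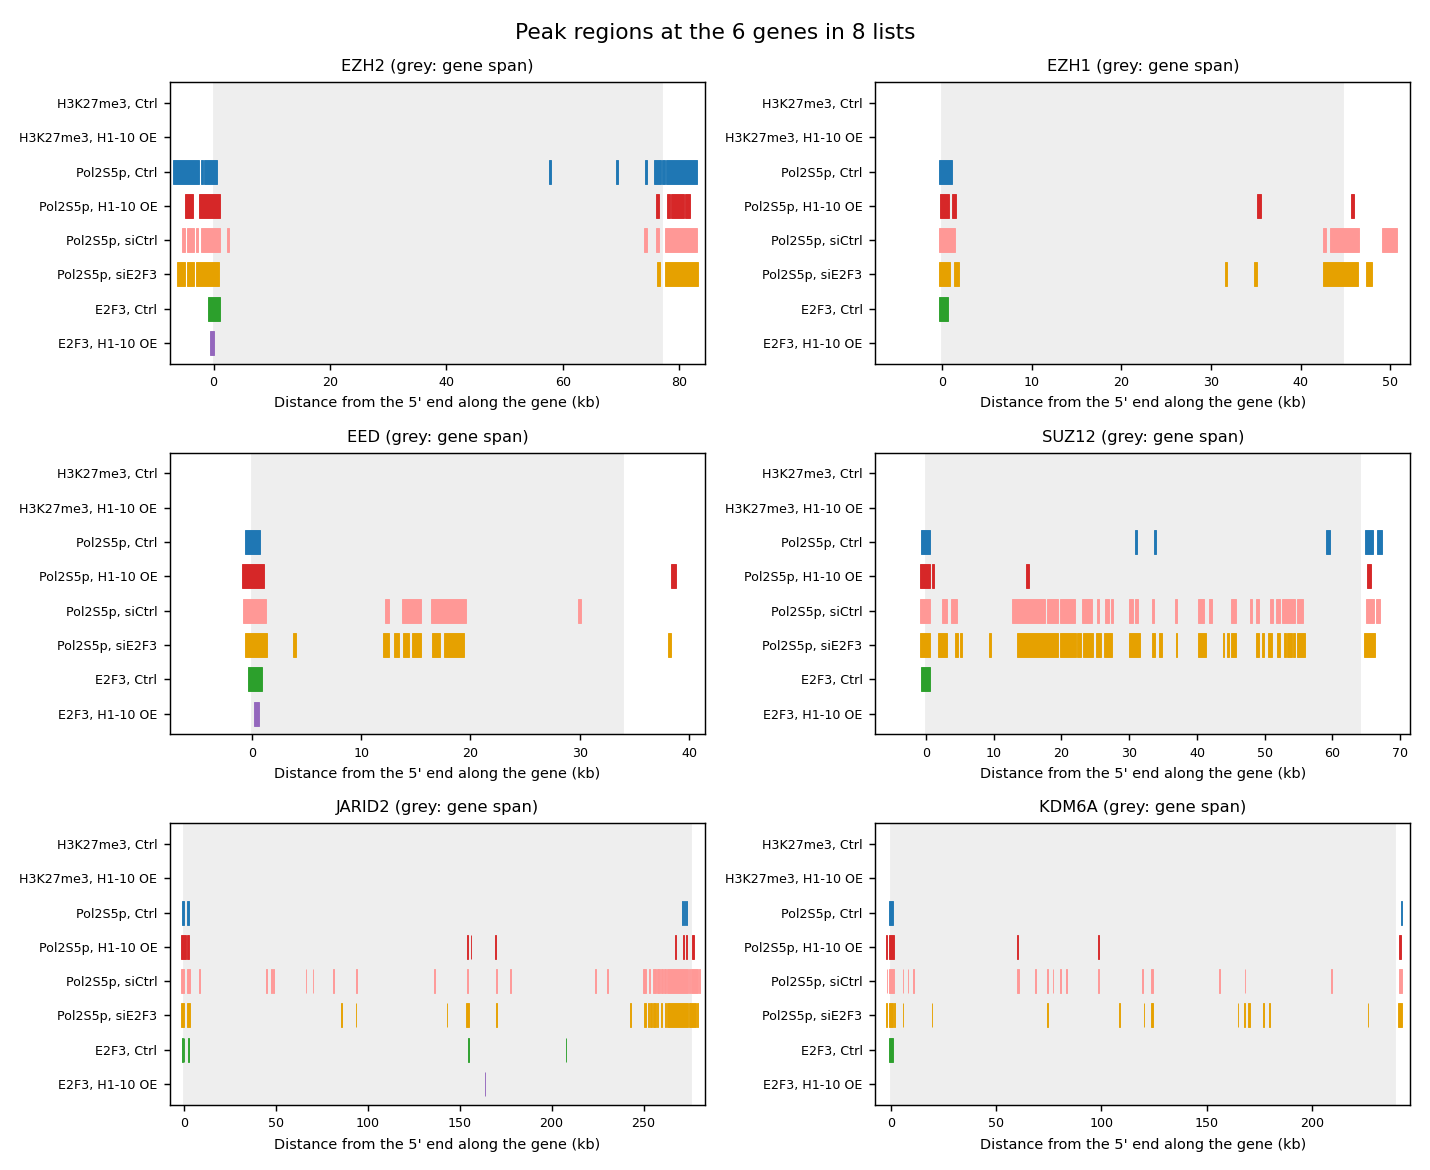
Peak regions at the 6 genes. Each panel is 1 gene, the horizontal axis is the distance from its 5' end in kb along the gene, each row is 1 list and each bar is 1 region, drawn to scale with a thin outline. Pol2S5p lay over every 5' end in all 4 lists, and both H3K27me3 rows are empty. In siCtrl and siE2F3 the bodies of SUZ12, JARID2 and KDM6A carried the most regions.

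All 6 members had an E2F3 region of Ctrl at the 5' end, within 1 kb of it, and the H1-10 OE list kept a region there at EZH2 and EED alone. The share of all gene 5' ends with an E2F3 region was not counted, so this count does not set the members apart from other genes. E2F3 regions of Ctrl numbered 10 at the members, and 8 of them were not overlapped by an E2F3 region of H1-10 OE (80.0%, 95% Wilson interval 49.0 to 94.3%, which covers counting error only), against 97.4% of the whole Ctrl list. The Ctrl list was far longer. With the 4296 strongest peaks of each list, 4 Ctrl regions were left at the members, and those of EZH1 and SUZ12 were the 2 without a counterpart, against 90.3% of all Ctrl regions so chosen. The E2F3 list of H1-10 OE also had no region in the windows at KLK3 and KLK2, TMPRSS2, HOXB13 and FOXA1, where that of Ctrl covered 2.25, 1.11, 2.42 and 4.84 kb, and the part of this in the E2F3 difference at the members was not tested. The H1-10 OE list had 3 regions at the members, of which 1 had no counterpart in Ctrl (interval 6.15 to 79.2%), against 85.9% of that list. Of the 10 Ctrl regions, 8 overlapped a Pol2S5p region of Ctrl (interval 49.0 to 94.3%), against 68.0% of all E2F3 regions of Ctrl. With the H1-10 OE lists of both targets 2 of 3 did (interval 20.8 to 93.9%), against 30.2%. These 2 lay at the 5' ends of EZH2 and EED, while the list share covers regions at all places. With only 3 regions of H1-10 OE, neither of its shares sets the members apart.

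Among the catalytic subunits, EZH2 had the strongest E2F3 signal of the members. Its Ctrl region at chr7:148580392-148582323 (hg19) was 1932 bp wide, had a fold enrichment of 90.4 and ranked 10 of 22988 by -log10 p. Its summit lay at -343, where positions count bp from the 5' end along the gene and negative values are upstream. In H1-10 OE the EZH2 region spanned -628 to 1, had a fold of 7.96 and ranked 44 of 4296, with its summit at -351. The summits of the 2 libraries were therefore 8 bp apart. EZH1, the second catalytic subunit, had a Ctrl region at chr17:40896449-40897448 with a fold of 33.7, a rank of 1157 and a summit at -88. The H1-10 OE list held no E2F3 region anywhere at EZH1.

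The core subunits EED and SUZ12 had Ctrl regions of like strength. EED, the subunit that reads H3K27me3, had a region at chr11:85955442-85956712 with a fold of 38.0 and a rank of 1091. Its summit at 489 lay inside the gene. The H1-10 OE region of EED spanned 192 to 667 with its summit at 349, but its fold of 3.09 and its rank of 2527 of 4296 placed it in the weaker part of that list. Its -log10 q of 4.40 was below the minimum of 5 used as an alternative setting, so EED kept no region there. SUZ12 had a Ctrl region at chr17:30263320-30264599 with a fold of 35.0, a rank of 1372 and a summit at -139, and no region in H1-10 OE. So of the members whose Ctrl E2F3 regions ranked within the top 6% of the list, EZH2 and EED kept a region in H1-10 OE while EZH1 and SUZ12 did not. E2F words were held by the windows of EZH2, EZH1 and SUZ12 shown above, and not by that of EED. The windows shown are short, and the E2F3 summits of EZH2 and EED lay farther from the 5' end than the windows reach from the RefSeq start.

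JARID2 and KDM6A had weaker E2F3 regions. JARID2 had 5 in Ctrl. A pair lay at the 5' end, at -986 to -352 with a fold of 13.0 and at -95 to 171 with a fold of 4.30. RefSeq also lists JARID2-DT, on the opposite strand, at JARID2. Where JARID2-DT lies relative to this pair was not examined. A further region of 1007 bp at chr6:15248295-15249301 had a fold of 12.0 and its summit at 2810, and RefSeq gives JARID2 a second start 2.79 kb after the first. The last 2 lay deep in the gene, at 154.6 and 207.7 kb, with folds of 6.39 and 6.14, and were the member regions of E2F3 in Ctrl without Pol2S5p of Ctrl. The region of H1-10 OE at JARID2, from 163.7 to 164.0 kb with a fold of 5.07, met none of the other lists. KDM6A, the demethylase on chromosome X, had a Ctrl region at chrX:44731557-44733276 with a fold of 16.99, a rank of 7348 and a summit at -135, and none in H1-10 OE.

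**Figure D2:**
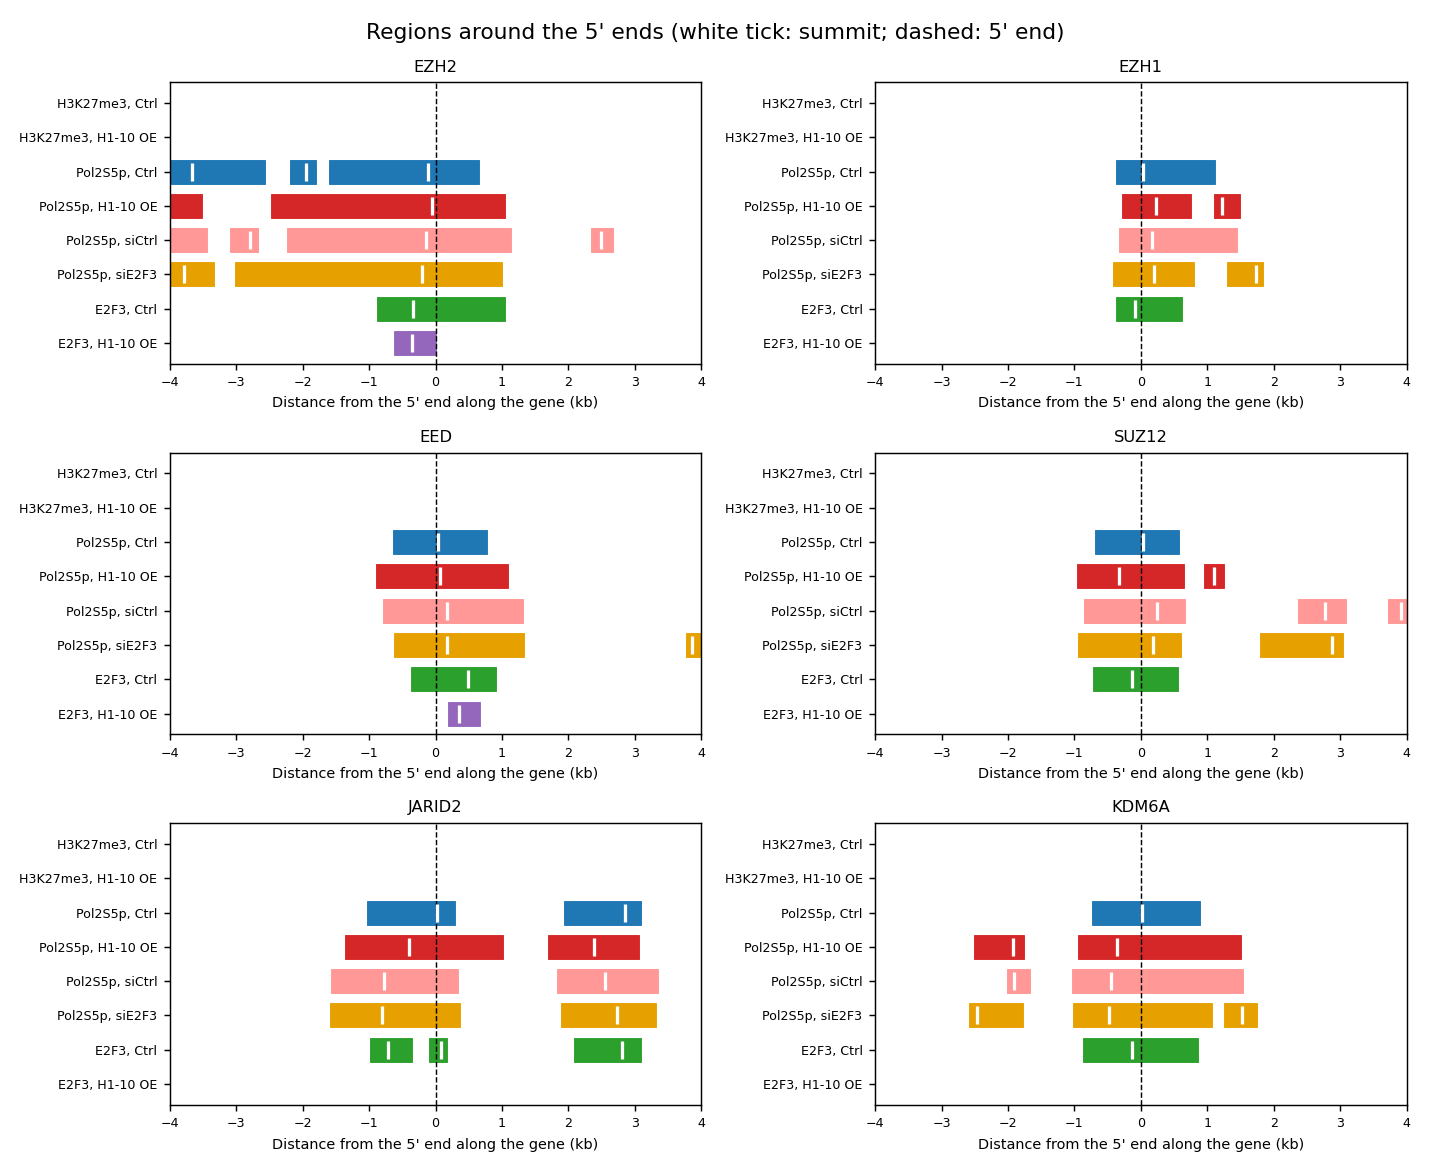
Regions within 4 kb of the 5' end of each gene (dashed line). The horizontal axis is the distance from the 5' end in kb, rows are the 8 lists, bars are regions and white ticks are summits. E2F3 of Ctrl is present in all 6 panels and E2F3 of H1-10 OE in those of EZH2 and EED, and JARID2 shows a second cluster of Pol2S5p and E2F3 near its second start.

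Pol2S5p was found over the 5' end of all 6 members in Ctrl, H1-10 OE, siCtrl and siE2F3, including the 4 members without an E2F3 region of H1-10 OE at that place. The share of all gene 5' ends with a Pol2S5p region was likewise not counted. EZH2 ranked first of the members in each list. Its 5' region had a fold of 27.9 in Ctrl, 39.7 in H1-10 OE, 32.1 in siCtrl and 27.7 in siE2F3, and lay within the top 1% of every list (rank 351 of 35493, 302 of 40626, 547 of 83650 and 502 of 83067). It was also wide, 2264 bp in Ctrl and 3517, 3378 and 4018 bp in the other lists, where this single region reached further upstream. In Ctrl separate Pol2S5p regions followed upstream of it, at -2199 to -1800 and at -6918 to -2569. The other lists had separate upstream regions as well. EZH1 had folds of 18.8, 17.7, 15.2 and 9.60 in the same order, and its place in each list was between the top 9.33 and 11.7%.

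EED had folds of 20.1 in Ctrl, 36.7 in H1-10 OE, 39.4 in siCtrl and 10.0 in siE2F3. It lay in the top 7.31, 0.955, 1.64 and 4.88% of these lists. The lists of siCtrl and siE2F3 are of nearly equal length, but fold and rank each depend on the whole library, so the lower value in siE2F3 is a description of 2 libraries. SUZ12 had folds of 19.7, 21.5, 19.2 and 22.7 and lay in the top 15.3, 8.18, 6.18 and 4.47%. JARID2 had the weakest 5' region of the members in Ctrl, with folds of 7.87, 10.9, 16.5 and 13.6. At its second start it had a further Pol2S5p region in every list, with folds of 7.72, 9.24, 23.6 and 7.06, the value of siCtrl being the one that exceeded that of the first start. KDM6A had folds of 9.64, 17.1, 17.9 and 16.5 and lay in the top 26.8, 13.7, 5.69 and 5.38%.

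**Figure D3:**
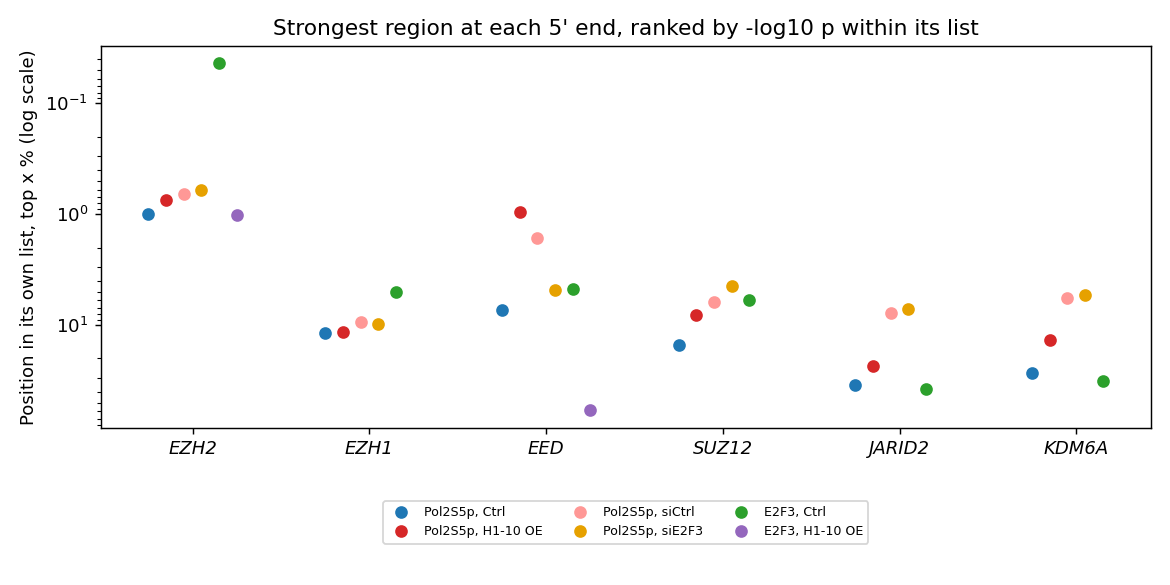
Place of the strongest region at each 5' end within its own list. The vertical axis is the rank by -log10 p in percent of the list, on a log scale with the strongest at the top, and each point is 1 library. EZH2 lies at or above the top 1.02% in all 6 lists shown, while JARID2 and KDM6A lie lower in the Ctrl lists.

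The Pol2S5p lists of the libraries labelled Ctrl and H1-10 OE were compared next. At the members, regions found in 1 of the 2 lists lay mostly away from the 5' ends. Of 24 Ctrl regions, 10 were not overlapped by H1-10 OE (41.7%, 24.5 to 61.2%), against 41.0% of the whole list. Of 31 H1-10 OE regions, 15 were not overlapped by Ctrl (48.4%, 32.0 to 65.2%), against 42.8%. Both shares were near those of their lists. By rank, all 10 of the first and 12 of the 15 of the second stood in the weaker 50% of their own list, as did 79.1 and 74.8% of all regions without a counterpart in these lists. None of the 6 regions at the 5' ends in Ctrl was among the 10. Of the 15 in H1-10 OE, 1 lay at a 5' end, a region of 307 bp at 944 to 1250 in SUZ12 beside the main one.

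At EZH2 the Ctrl list had 9 regions and that of H1-10 OE 6, and 4 of the 9 had no counterpart: 283 bp at 57.6 kb, 381 bp at 69.1 kb, 346 bp at 74.2 kb and 359 bp at 77.1 kb, with folds between 3.25 and 4.27. The region of 5195 bp past its 3' end, from 77.8 to 83.0 kb with a fold of 6.84, was the one Ctrl region of at least 5 kb at the members. In H1-10 OE the same stretch held 3 regions of 532, 2200 and 827 bp. SUZ12 had 4 Ctrl regions without a counterpart, the strongest of them past its 3' end at chr17:30330560-30331289 with a fold of 4.51, which was present in siCtrl. JARID2 had 1, at 271.9 kb with a fold of 3.77, which was present in siCtrl and siE2F3. KDM6A had 1, at 242.3 kb past its 3' end, and H1-10 OE had a region of its own close by, at 241.7 to 242.2 kb, that did not reach it. EZH1 and EED had no Ctrl region other than that of the 5' end.

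The regions of H1-10 OE without a counterpart were 6 at JARID2, 4 at KDM6A, 2 each at EZH1 and SUZ12, 1 at EED and 0 at EZH2. The strongest was at KDM6A, 629 bp at chrX:44830717-44831345, deep in the gene at 98.3 kb, with a fold of 7.98. It was found again in siCtrl, there with a fold of 3.13 and a rank of 75913 of 83650, and not in siE2F3. A second KDM6A region lay upstream of the 5' end, at -2511 to -1764 with a fold of 6.39, and was present in siCtrl and siE2F3 as well. At JARID2 the region at chr6:15400191-15400927, 154 kb into the gene, had a fold of 6.69 and was present in siCtrl and siE2F3. It overlapped the E2F3 region of Ctrl at 154.6 kb, where Ctrl itself had no Pol2S5p region. A further JARID2 region, 555 bp wide at 276.978 kb and past the 3' end, had a fold of 5.47 and was present in both siRNA lists. One of 290 bp at 155.986 kb with a fold of 5.23 was in no other list. Of the 15 regions, 11 were overlapped by siCtrl (73.3%, 48.0 to 89.1%), against 76.9% of all such regions of H1-10 OE. Of the 10 regions of Ctrl, 6 were overlapped by siCtrl (60.0%, 31.3 to 83.2%), against 47.9%. With siCtrl in place of H1-10 OE, 4 Ctrl regions at the members had no counterpart.

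**Figure D4:**
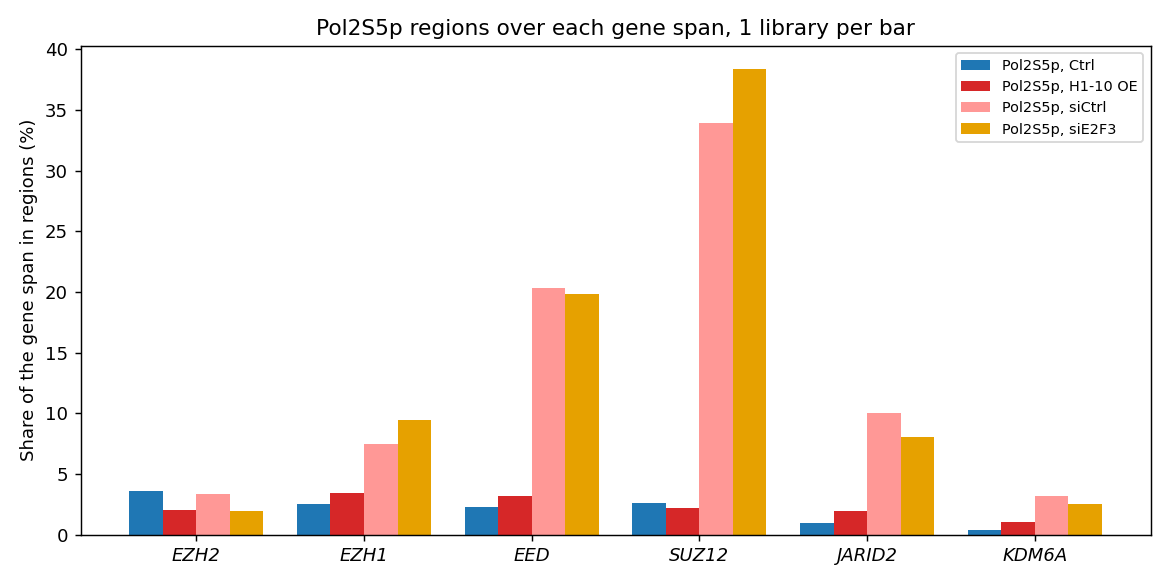
Share of each gene span covered by Pol2S5p regions in percent, 1 bar per library, with the axis from 0. In siCtrl and siE2F3 the bars of SUZ12 and EED rise to between 19.8 and 38.3%, while EZH2 stays below 4% in every library.

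The siCtrl and siE2F3 lists held many more regions inside the genes. Regions at the members numbered 90 in siCtrl and 86 in siE2F3, of which 72 and 70 lay in the gene bodies, against 11 and 13 in Ctrl and H1-10 OE. The covered share of the span of SUZ12 was 2.64% in Ctrl, 2.16% in H1-10 OE, 33.9% in siCtrl and 38.3% in siE2F3. The shares of EED were 2.27, 3.19, 20.3 and 19.8% in the same order. Those of JARID2 were 0.992, 1.97, 10.1 and 8.02%, those of EZH1 2.49, 3.43, 7.47 and 9.41%, and those of KDM6A 0.373, 1.06, 3.21 and 2.4997%. EZH2 was the member with no higher share in siCtrl than in Ctrl, with 3.59, 2.03, 3.33 and 1.97%. Summed over the 6 spans, siCtrl covered 70.0 kb, 5.17 times the 13.5 kb of H1-10 OE. The whole siCtrl list covered 2.62 times as much of the genome as that of H1-10 OE, so list length moved with this difference, and its part was not tested.

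In SUZ12 the body regions ran from 2.37 to 55.65 kb in siCtrl and the largest was 4843 bp. In siE2F3 that stretch held a region of 6018 bp at chr17:30277526-30283543 with a fold of 6.80, part of which H1-10 OE met with a single region of 420 bp at 14.8 kb. SUZ12 has a partial copy, the pseudogene SUZ12P1, on the same chromosome, and how reads that fit both were assigned is not given in the sources used here. In EED the body regions lay between 12.2 and 19.6 kb in siCtrl, with 1 more at 29.8 kb. In JARID2 they gathered at the 3' end, where a region of 11376 bp at chr6:15509191-15520566 with a fold of 16.5 in siCtrl was matched by 1 of 10324 bp with a fold of 7.73 in siE2F3. Within 5 kb of that 3' end, a window set after the values were seen, the covered length was 8.20 kb in siCtrl, 7.86 kb in siE2F3, 1.98 kb in H1-10 OE and 1.22 kb in Ctrl. DTNBP1, on the opposite strand in RefSeq, ends beside JARID2, so this signal cannot be given to one gene. The same holds at EZH1, whose 3' end meets that of CNTNAP1 and had 4.36 kb in siCtrl, 4.52 kb in siE2F3, 0.397 kb in H1-10 OE and none in Ctrl.

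In siE2F3, as in siCtrl, all 6 genes had a Pol2S5p region at the 5' end. E2F3 itself was not mapped in siCtrl or siE2F3, so the lists do not show how far it was reduced. Whether these regions depend on E2F3 was not tested. Of 90 siCtrl regions, 34 were not overlapped by siE2F3 (37.8%, 28.5 to 48.1%), against 30.6% of the whole list. Of 86 siE2F3 regions, 25 were not overlapped by siCtrl (29.1%, 20.5 to 39.4%), against 22.9%. Both intervals include the share of the list. They treat neighbouring regions of 6 genes in 1 library as independent, so they do not test the members against the list. JARID2 and KDM6A held most of the siCtrl regions without a counterpart, 16 of 30 and 11 of 18, while EZH2 had 2 of 8, EZH1 1 of 4, EED 1 of 5 and SUZ12 3 of 25. Among siE2F3 regions without a counterpart in siCtrl, KDM6A had 8 of 17, SUZ12 7 of 28, JARID2 4 of 21, EZH1 and EED 3 each and EZH2 none.

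By rank, 32 of the 34 and 22 of the 25 stood in the weaker 50% of their own list, against 85.5 and 87.1% of all regions without a counterpart. The strongest in siCtrl alone, which was not among the 32, was 389 bp in KDM6A at 76.8 kb with a fold of 5.85. It was followed by a region 706 bp wide at 280.2 kb, past the 3' end of JARID2, with a fold of 5.61. Next was the region past the 3' end of SUZ12 at 66.5 kb with a fold of 4.89 that Ctrl also had. Then came 333 bp in JARID2 at 81.3 kb with a fold of 3.88 and 412 bp in SUZ12 at 41.8 kb with a fold of 4.92. The last shared its -log10 q with 1 further region in JARID2, at 223.5 kb, and with those in KDM6A at 7.94 and 209.0 kb. The strongest in siE2F3 alone were 320 bp in SUZ12 at 34.5 kb and 400 bp in KDM6A at 176.9 kb, each with a fold of 4.97. After them came a region 604 bp wide at 47.3 kb, past the 3' end of EZH1, with a fold of 4.66. A region 304 bp wide at 38.0 kb, past the 3' end of EED, had a fold of 4.48. The next was 587 bp wide in KDM6A at 169.9 kb with a fold of 4.35. RefSeq now gives EED a length of 42.9 kb against 34.0 kb in the span used, so the EED region may lie inside a longer form of the gene. The long region past the 3' end of EZH2 was kept, with 5509 bp in siCtrl and 5711 bp in siE2F3.

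No H3K27me3 region lay at any member in Ctrl or H1-10 OE. The widened spans add up to 0.795 Mb, and the lists cover only 1.52 and 10.1 Mb of the whole genome, so a count of 0 sets these genes apart from no others. The nearest H3K27me3 region to EZH2 was 1.58 Mb away in Ctrl and 0.598 Mb in H1-10 OE. For EZH1 these distances were 3.09 and 0.958 Mb, for EED 3.51 and 0.697 Mb and for JARID2 13.6 and 2.48 Mb. SUZ12 was the one member with the nearer region in Ctrl, at 0.265 Mb against 1.05 Mb. The H1-10 OE list held 18395 regions against 2540 in Ctrl, and these distances were not adjusted for list length. KDM6A lies on chromosome X, where the Ctrl list had 0 regions and that of H1-10 OE 1319, the nearest 5.22 Mb away. The H3K27me3 regions were short and thin for a broad mark, with median widths of 460.5 and 433 bp, and a place outside them may still carry the mark below the threshold of the lists.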

How the data were processed

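The deposited peak lists of 8 of the 22 samples were used, 1 library per group. The other 14, which are 10 inputs and 4 Flag libraries of H1-10, were not analysed here. The submitters' processing notes name build hg19 and the tools Bowtie, fastp and FastQC. No version, caller, threshold or matching of inputs to lists is given in the sources used here. The deposited lists give for each peak a score, the fold enrichment of its summit (a ratio), -log10 p and -log10 q, and a summit offset. The lowest -log10 q was 1.30. The folder label in the peak names differs between the H3K27me3, Ctrl and H1-10 OE Pol2S5p lists and the E2F3, siCtrl and siE2F3 lists, so overlaps across these sets may carry a processing difference.

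The members and all lists and settings were chosen with earlier results of these data known. Rows that overlapped or touched were joined, which changed no list. Regions overlapping by at least 1 bp counted as shared. Strands came from RefSeq and the 5' end is that end of the span. Regions within 1 kb of it are 5' end regions, and others were placed by their midpoint. Ranks are by -log10 p within a list. Named singly were the 5' end regions, those of at least 5 kb and the 5 with the highest -log10 q found in 1 list of a pair. Marker windows were drawn around gene positions from general knowledge of hg19. Of the planned marker windows, 1 is not reported here. Other PRC2 genes (AEBP2, PHF1, MTF2, PHF19, RBBP4, RBBP7, EPOP, LCOR, KDM6B) were planned where an hg19 annotation was given and were not analysed here. All 6 members matched the RefSeq promoter table. Read depth is unknown, so intervals (95%, Wilson) cover counting error over regions only. The overlap code was tested on simulated copies of regions and against bedtools 2.31.1. Computations used Python 3.11.15, numpy 2.4.6, pandas 2.3.3, statsmodels 0.14.6 and matplotlib 3.10.9.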

Additional observations from a re-analysis of the deposited data

How the results depend on the processing

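Of 58 values under alternative settings, 44 were within 1.5 times the reported count and 14 were not. The counts of members with Pol2S5p (Ctrl, H1-10 OE) or E2F3 (Ctrl) at the 5' end were 6 under every setting run, and those of H3K27me3 regions were 0. With -log10 q of at least 5 in every list, Pol2S5p regions of the members without a counterpart fell to 2 in Ctrl, 6 in H1-10 OE, 15 in siCtrl and 11 in siE2F3, and E2F3 of H1-10 OE to 0. The E2F3 region of H1-10 OE at EED, with a -log10 q of 4.40, was lost at this setting. With 50% reciprocal overlap they were 16 in Ctrl, 23 in H1-10 OE and 47 in siE2F3, and 3 for E2F3 of H1-10 OE. All 10 E2F3 regions of Ctrl, those of EZH2 and EED included, then had no counterpart. Equal numbers of the strongest peaks left 2 of 4 E2F3 regions of Ctrl without a counterpart, in place of 8 of 10, fewer regions being used. Without the flank, 9 Pol2S5p regions of H1-10 OE remained. With peaks within 1 kb merged, 15 of siE2F3 did. With siCtrl as the other list, chosen after the data were seen, 4 Pol2S5p regions of Ctrl and 4 of H1-10 OE had no counterpart. No paired analysis was possible because each group was 1 library. No replicate could be left out for the same reason. Depth is unknown, so the absence of a region is not absence of signal.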

Other observations

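H3K27me3 had no region of Ctrl in the windows at the prostate lineage genes KLK3 and KLK2, TMPRSS2, HOXB13 and FOXA1. In H1-10 OE it covered 1.21 kb at KLK3 and KLK2 and 2.40 kb at TMPRSS2, with none at HOXB13 or FOXA1. The H3K27me3 list of H1-10 OE was far longer, with 18395 regions against 2540 in Ctrl, and the part of this was not tested. Each value is from 1 library.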
